A study of Mus musculus with 12 samples.

Results

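Cholesterol is built from acetyl-CoA through the mevalonate pathway, which yields farnesyl diphosphate, then squalene, then lanosterol, and a series of later enzymes turns lanosterol into cholesterol. Cells also take up cholesterol from lipoproteins in serum through receptors at the cell surface. When sterols in the endoplasmic reticulum run low, the protein SCAP carries SREBP transcription factors to the Golgi, where they are cleaved, and they then switch on genes of synthesis and uptake. INSIG proteins hold SCAP back when sterols are plentiful. Serum is a source of lipoproteins, whereas the defined 2i medium contains no serum.

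The genes described are a listed set of 8: Hmgcs1, Idi1, Fdft1, Sqle, Lss, Cyp51, Dhcr7 and Insig1. They were taken by name from a given list, with no threshold on a measured value. The members and the other gene lists were, however, chosen with earlier results of these data known. Of these, 7 were found among the 39017 genes of the count table and all 7 passed the filter on low counts. Hmgcs1, which makes HMG-CoA, could not be matched to an identifier in the name tables used here and no value is given for it. The set is described as cholesterol synthesis and uptake genes, but 7 of its 8 members encode enzymes of synthesis and Insig1 encodes a sensor protein, so that none is itself an uptake gene. Genes of uptake were therefore followed in a separate list.

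The data are 12 poly(A) RNA-seq libraries from mESCs (mouse embryonic stem cells), with 3 biological replicates in each of 4 groups. J1 is a male wild-type line. The 3B3-3l line carries knockouts of both Dnmt3a and Dnmt3b and expresses Dnmt3b and Dnmt3l transgenes from the constitutive CAG promoter, which keeps DNA methylation in place in 2i. The serum medium contained 15% fetal calf serum and LIF (500 U/ml per the labels, though the study's methods give a higher dose), and 2i was N2B27 base medium with 1 µM PD0325901 (a MEK inhibitor), 3 µM CHIR99021 (a GSK3 inhibitor) and LIF at 1000 U/ml. A comparison of media thus joins serum, inhibitors, base medium and LIF dose, and their parts cannot be told apart. In serum, J1 cells grew on feeder fibroblasts that were removed by plating, whereas 3B3-3l cells grew on gelatin, so that line and culture surface cannot be told apart in that medium. The study describes feeders for J1 in serum culture and their depletion for conversion to 2i. The J1 comparison of media, and the difference of 2i effects between the lines, therefore also carry the change of culture surface.

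Libraries held 37050652 to 44515395 estimated reads, and a count of 3 in a library was worth 0.0684 to 0.0813 CPM, the unit of all levels given (reads after TMM scaling of the libraries to a common size). Summed levels of 11 mESC markers were 5917 to 5975 CPM in J1 serum, 5791 to 6683 in J1 2i, 5159 to 5726 in 3B3-3l serum and 6808 to 7062 in 3B3-3l 2i. The sums hide changes both ways. In J1, 5 of the 11 were called higher in 2i and 4 lower, against 33.2% and 32.9% of all genes. In 3B3-3l, 5 were called higher and 3 lower, against 32.7% of all genes each way. Summed levels of 14 fibroblast markers were 67.4 to 72.6 CPM in J1 serum, 27.1 to 29.0 in J1 2i, 86.0 to 100.4 in 3B3-3l serum and 18.6 to 19.1 in 3B3-3l 2i. Their sums moved with medium, and 8 of the 9 tested were called lower in 2i in each line. Over all genes, 32.9% were called lower in J1 and 32.7% in 3B3-3l. The other marker tested, Pdgfrb, rose in J1 from a mean of 6.31 to 19.4 CPM. It was not called in 3B3-3l (7.39 CPM in serum and 7.33 in 2i). The most abundant of the fibroblast markers in serum was Col1a1, at a mean of 28.1 CPM in J1 and 35.5 CPM in 3B3-3l, against 3.28 and 2.30 CPM in 2i. Thy1, at 11.3 CPM in J1 serum, Col1a2 (8.91), Pdgfrb (6.31), Fbln2 (5.91), Col5a2 (4.91) and Loxl1 (3.52) followed, and the other 7 markers were each at 0.651 CPM or less there, with Lum and Dpt at 0. Summed levels of 9 primitive endoderm markers were 11.3 to 13.2 CPM in J1 serum, 6.77 to 7.72 in J1 2i, 22.0 to 22.8 in 3B3-3l serum and 8.66 to 9.67 in 3B3-3l 2i. In J1, 4 of the 9 were called lower in 2i and 2 higher (Gata4 and Sox17), against 32.9% and 33.2% of all genes. In 3B3-3l, 7 were called lower and 0 higher, against 32.7% of all genes each way. The part of these cells in the results was not tested. Dnmt3a, disrupted in 3B3-3l, was lower there than in J1, at 29.4 to 34.3 CPM against 166 to 167 in serum and at most 5.07 against at least 38.9 in 2i. In bulk RNA of this kind, fewer cells of a type and less RNA per cell cannot be told apart.

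The promoters of genes that differed most between the groups are shown, together with that of Hmgcs1. Among the members with a sequence, only the Hmgcs1 window contained the letters searched for as the sterol regulatory element (TCACNCCAC). SREBP factors bind this element. Other spellings of it were not searched for, so elements spelled otherwise may be present in any of the windows. Sequences are from RefSeq (GRCm38.p6), are the 250 bases before an annotated gene start and read 5′ to 3′ along the gene's strand. Of the 8 members, 6 had an entry and these gave 8 windows, since Dhcr7 had 3. Fdft1 and Sqle had no entry, so nothing is said of their promoters. Capitals mark the element, searched as TCACNCCAC, and CCAAT, the box bound by NF-Y, each on both strands (CCAAT reads ATTGG on the other strand).
Hmgcs1, chr13:119690101-119690350, plus strand: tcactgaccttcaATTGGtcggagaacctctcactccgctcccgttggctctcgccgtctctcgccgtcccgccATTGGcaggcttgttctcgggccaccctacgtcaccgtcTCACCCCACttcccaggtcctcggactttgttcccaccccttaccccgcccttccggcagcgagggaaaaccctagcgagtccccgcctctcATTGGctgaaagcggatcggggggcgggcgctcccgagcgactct
Cyp51, chr5:4104698-4104947, minus strand: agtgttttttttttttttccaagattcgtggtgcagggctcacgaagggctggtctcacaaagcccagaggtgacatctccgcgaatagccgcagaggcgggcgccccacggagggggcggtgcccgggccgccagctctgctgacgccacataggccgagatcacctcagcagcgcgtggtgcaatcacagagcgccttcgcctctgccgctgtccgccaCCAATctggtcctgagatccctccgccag
Insig1, chr5:28071162-28071411, plus strand: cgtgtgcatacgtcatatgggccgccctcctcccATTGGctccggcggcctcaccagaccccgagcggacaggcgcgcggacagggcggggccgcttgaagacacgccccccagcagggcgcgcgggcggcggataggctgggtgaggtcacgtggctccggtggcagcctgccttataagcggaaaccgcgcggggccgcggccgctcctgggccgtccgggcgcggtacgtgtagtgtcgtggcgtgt
Dhcr7, its most upstream start, chr7:143822917-143823166, plus strand: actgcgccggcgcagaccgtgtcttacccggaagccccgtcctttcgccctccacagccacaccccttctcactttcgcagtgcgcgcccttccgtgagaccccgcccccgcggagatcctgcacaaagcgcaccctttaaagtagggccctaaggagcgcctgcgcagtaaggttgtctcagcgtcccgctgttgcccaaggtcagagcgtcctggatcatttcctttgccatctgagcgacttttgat

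The element in the Hmgcs1 window lay at position -137 from the start. It was found in 1.05% of 32851 such windows of all genes and in no other member's window, which says only that these letters were not present there. CCAAT was found in 33.8% of all windows and, among the members, in those of Hmgcs1, Cyp51, Insig1, Lss and Idi1 and in the third Dhcr7 window. GGGCGG, the GC box bound by Sp1, was found in 32.7% of all windows and in 7 of the 8 windows of the members, without overlap with the other motifs. CpG dinucleotides, the sites of DNA methylation, numbered 20 in the Cyp51 window, 34 in that of Insig1 and 21 in the Dhcr7 window shown, against a median of 6 and an upper quartile of 16 over all windows. Methylation itself was not measured in these libraries.

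The question first addressed was how the pathway differed between 2i and serum in wild-type cells. In J1, 4 of the 7 members rose in 2i (Cyp51, Insig1, Fdft1 and Dhcr7), none fell and 3 were not called (Sqle, Idi1 and Lss). The background was high, since 33.2% of the 17885 genes tested were called higher and 32.9% were called lower in the same comparison. The median log2 fold change of the members was 0.31, against 0.01 over all genes tested. No member reached a 2-fold change in either line.

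In 3B3-3l, 3 members rose in 2i (Fdft1, Insig1 and Cyp51), 2 fell (Idi1 and Lss) and 2 were not called (Sqle and Dhcr7). Over all genes, 32.7% were called higher and 32.7% were called lower. The median of the members was 0.08, against 0.01 over all genes. Read against these shares, 3 of 7 higher and 2 of 7 lower lay near the background. The plot of levels by library shows the values behind these calls.

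**Figure D1:**
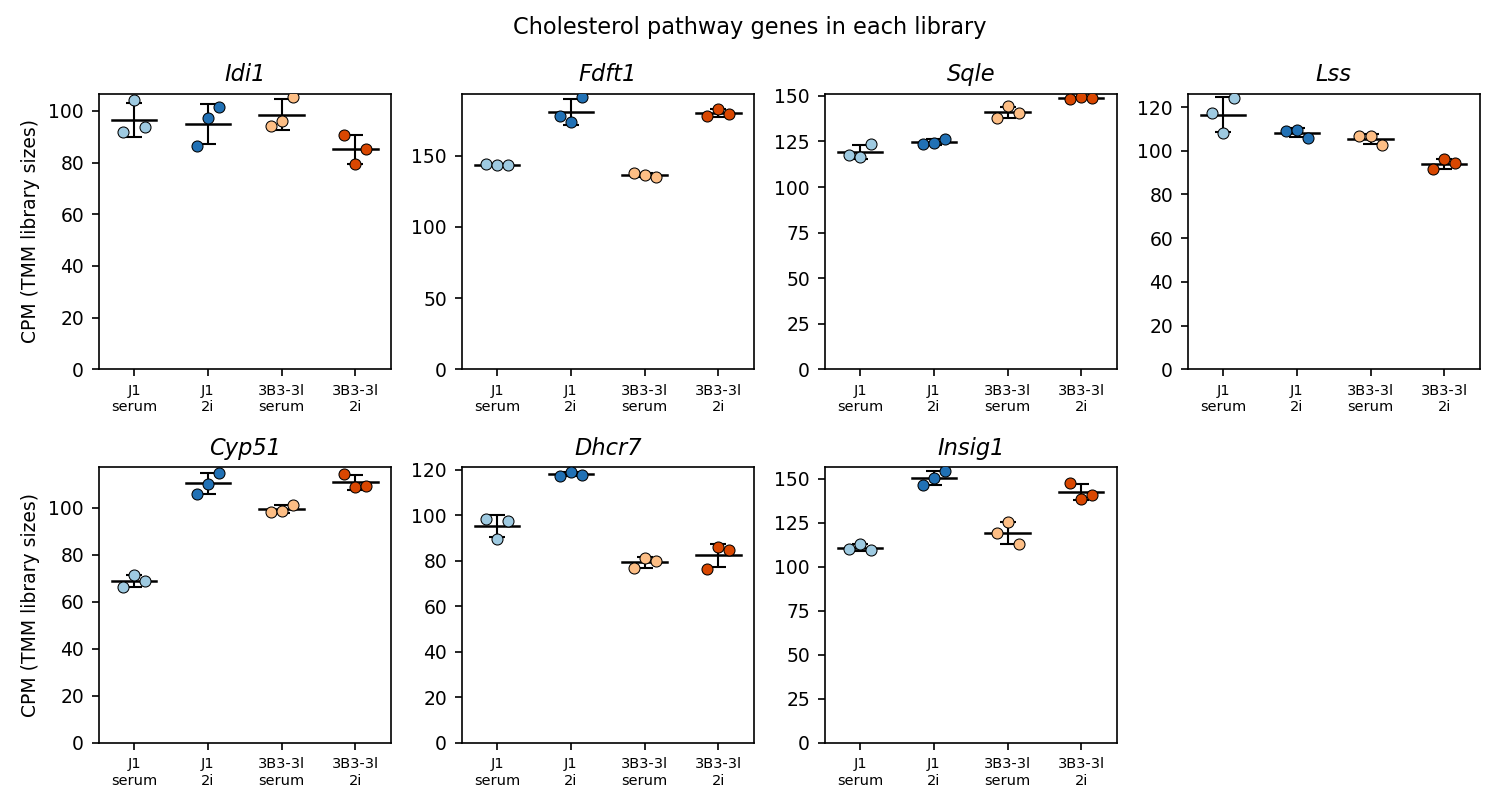
CPM (TMM library sizes) of the 7 measured genes in each of the 12 libraries, with the mean (bar) and SD (whiskers) of the 3 libraries of a group. The 3 J1 serum libraries sit lowest for Cyp51, at 66.4 to 71.3 CPM, and the 3 J1 2i libraries sit highest for Dhcr7, at 117.4 to 119.1 CPM.

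Members are described in pathway order. Idi1 (ENSMUSG00000058258, chromosome 13, 8885606 to 8892396 in GRCm38, as for all gene positions that follow) isomerises isopentenyl diphosphate. It was at 92.0, 104.1 and 93.8 CPM in J1 serum, and at 86.4, 97.2 and 101.5 CPM in J1 2i. In 3B3-3l it was at 94.4, 96.0 and 105.4 CPM in serum and at 90.7, 79.3 and 85.4 CPM in 2i. The J1 groups overlapped, whereas all 3B3-3l serum libraries lay above all 3B3-3l 2i libraries. Idi1 fell by 0.21 ± 0.07 on the log2 scale in 3B3-3l (edgeR adjusted p = 0.0157) and its log2 fold change was -0.02 ± 0.07 in J1 (edgeR adjusted p = 0.782). The difference between these effects was -0.19 ± 0.10 and was not called (edgeR adjusted p = 0.164). Without 3B3-3l serum replicate 3 the fall in 3B3-3l was no longer called, at -0.16 (edgeR adjusted p = 0.0781). The Idi1 transcript had 2 copies at least 90% identical over 300 bases elsewhere in the genome, the closest at 99.3%, so that its share of reads is uncertain.

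Fdft1 (ENSMUSG00000021273, chromosome 14, 63145150 to 63181687) encodes squalene synthase, the first enzyme committed to sterols. The J1 serum libraries were at 143.9, 143.7 and 143.5 CPM, and those in J1 2i at 177.5, 173.6 and 190.8 CPM. In 3B3-3l they were 137.5, 136.4 and 135.2 CPM in serum and 177.8, 183.0 and 178.9 CPM in 2i. All 2i libraries lay above all serum libraries. Fdft1 rose by 0.33 ± 0.04 on the log2 scale in J1 (edgeR adjusted p = 6.15e-06) and by 0.40 ± 0.04 in 3B3-3l (edgeR adjusted p = 6.88e-07). Neither the difference between these effects, 0.07 ± 0.06 (edgeR adjusted p = 0.416), nor a difference between lines in serum or 2i was called. Fdft1 had 1 near-identical copy elsewhere in the genome, at 97.4%.

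Sqle (ENSMUSG00000022351, chromosome 15, 59315092 to 59331193) encodes squalene epoxidase, a rate-limiting step of the sterol branch. It was at 117.7, 116.6 and 123.8 CPM in J1 serum, with 123.4, 123.9 and 126.4 CPM in J1 2i. In 3B3-3l it was at 138.0, 144.2 and 140.8 CPM in serum and at 148.1, 149.6 and 148.8 CPM in 2i. Every 3B3-3l library lay above every J1 library. The line difference on the log2 scale was 0.24 ± 0.04 in serum, with an edgeR adjusted p of 0.000298, and 0.26 ± 0.04 in 2i, with 0.000108. Medium effects were 0.06 ± 0.04 in J1 and 0.08 ± 0.04 in 3B3-3l and were not called (edgeR adjusted p = 0.201 and 0.11).

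Lss (ENSMUSG00000033105, chromosome 10, 76531565 to 76557139) encodes lanosterol synthase, which closes the sterol rings. Its levels were 117.3, 108.1 and 124.1 CPM in J1 serum, with 109.2, 109.7 and 105.8 CPM in J1 2i. In 3B3-3l they were 106.6, 106.8 and 102.6 CPM in serum and 91.4, 96.0 and 94.3 CPM in 2i. The 3B3-3l 2i libraries were the lowest of the 12. Lss fell by 0.17 ± 0.05 on the log2 scale in 3B3-3l (edgeR adjusted p = 0.00985), and its log2 fold change was -0.11 ± 0.05 in J1 (edgeR adjusted p = 0.0788). It was lower in 3B3-3l than in J1 in 2i, by -0.20 ± 0.05 (edgeR adjusted p = 0.00385), and in serum, by -0.15 ± 0.05 (edgeR adjusted p = 0.0347). The call in serum was lost without J1 serum replicate 1 or 3 or 3B3-3l serum replicate 2 or 3 (edgeR adjusted p = 0.0667 to 0.182) and with transcript length offsets (edgeR adjusted p = 0.17). In J1, Lss was called lower in 2i without J1 serum replicate 2, at -0.16 (edgeR adjusted p = 0.0127).

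Cyp51 (ENSMUSG00000001467, chromosome 5, 4080674 to 4104697) encodes the demethylase that begins the conversion of lanosterol, and it showed the largest effect of medium in J1 and of line in serum among the members. It was at 66.4, 71.3 and 69.0 CPM in J1 serum, and at 106.0, 110.2 and 114.9 CPM in J1 2i. In 3B3-3l it was at 98.2, 98.7 and 101.3 CPM in serum and at 114.5, 108.7 and 109.1 CPM in 2i. J1 serum stood apart below the other groups, 3B3-3l serum came next, and the 2i groups overlapped. Cyp51 rose by 0.68 ± 0.05 on the log2 scale in J1 (edgeR adjusted p = 3.39e-09) and by 0.16 ± 0.05 in 3B3-3l (edgeR adjusted p = 0.00832), or by 60.2% and 11.4%. The difference between the effects was -0.52 ± 0.07 (edgeR adjusted p = 2.5e-05). In serum the gene was higher in 3B3-3l than in J1 by 0.53 ± 0.05 (edgeR adjusted p = 5.81e-07), whereas in 2i the line difference was 0.01 ± 0.05 (edgeR adjusted p = 0.942).

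Dhcr7 (ENSMUSG00000058454, chromosome 7, 143823167 to 143848410) encodes a reductase of the final steps, whose loss causes Smith-Lemli-Opitz syndrome. It was at 98.5, 89.7 and 97.4 CPM in J1 serum, and at 117.4, 119.1 and 117.6 CPM in J1 2i. In 3B3-3l it was at 76.8, 81.4 and 79.8 CPM in serum and at 76.6, 85.9 and 84.9 CPM in 2i. The J1 groups did not overlap, the 3B3-3l groups did, and every 3B3-3l library lay below every J1 library. Dhcr7 rose by 0.31 ± 0.05 on the log2 scale in J1 (edgeR adjusted p = 8.57e-05), and its log2 fold change in 3B3-3l was 0.06 ± 0.05 (edgeR adjusted p = 0.379). The difference between the effects was -0.25 ± 0.08 (edgeR adjusted p = 0.0158). It was lower in 3B3-3l by -0.26 ± 0.05 or -16.6% in serum, with an edgeR adjusted p of 0.00116, and by -0.52 ± 0.05 or -30.1% in 2i, with 1.24e-06.

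Insig1 (ENSMUSG00000045294, chromosome 5, 28071412 to 28078662) encodes the protein that retains SCAP when sterols are plentiful and is itself a target of SREBP. It was at 110.0, 112.9 and 109.3 CPM in J1 serum, and at 146.2, 150.4 and 154.2 CPM in J1 2i. In 3B3-3l it was at 118.8, 125.2 and 112.8 CPM in serum and at 147.5, 138.5 and 140.9 CPM in 2i. In both lines all 2i libraries lay above all serum libraries, whereas the lines overlapped within each medium. Insig1 rose by 0.44 ± 0.05 on the log2 scale in J1 (edgeR adjusted p = 7.01e-07) and by 0.26 ± 0.05 in 3B3-3l (edgeR adjusted p = 0.000183). The difference between the effects, -0.18 ± 0.07, was at the threshold (edgeR adjusted p = 0.0495). It stayed called without J1 serum replicate 2, 3B3-3l serum replicate 3 or 3B3-3l 2i replicate 1, and was lost when any 1 of the 9 other libraries was left out (edgeR adjusted p = 0.0508 to 0.149). In serum, the line difference of 0.10 ± 0.05 was not called (edgeR adjusted p = 0.105), but without 3B3-3l serum replicate 3 it was, at 0.14 (edgeR adjusted p = 0.0476). Insig1 had 1 near-identical copy elsewhere in the genome, at 97.9%.

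Between lines, 2 of the 7 members were called higher in 3B3-3l in serum (Cyp51 and Sqle) and 2 were called lower (Dhcr7 and Lss). Over all genes, 21.5% were called higher and 17.2% were called lower. In 2i, Sqle was called higher and Dhcr7 and Lss were called lower, against 23% and 22.9% over all genes. Idi1 was lower in 3B3-3l in 2i by a value that was not called, -0.16 ± 0.07 (edgeR adjusted p = 0.0817). The call was made without J1 2i replicate 1, at -0.22 (edgeR adjusted p = 0.0232), or without J1 serum replicate 2, at -0.18 (edgeR adjusted p = 0.0395). The direction of the line difference was the same in serum and 2i for the 3 members called in both media.

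**Figure D2:**
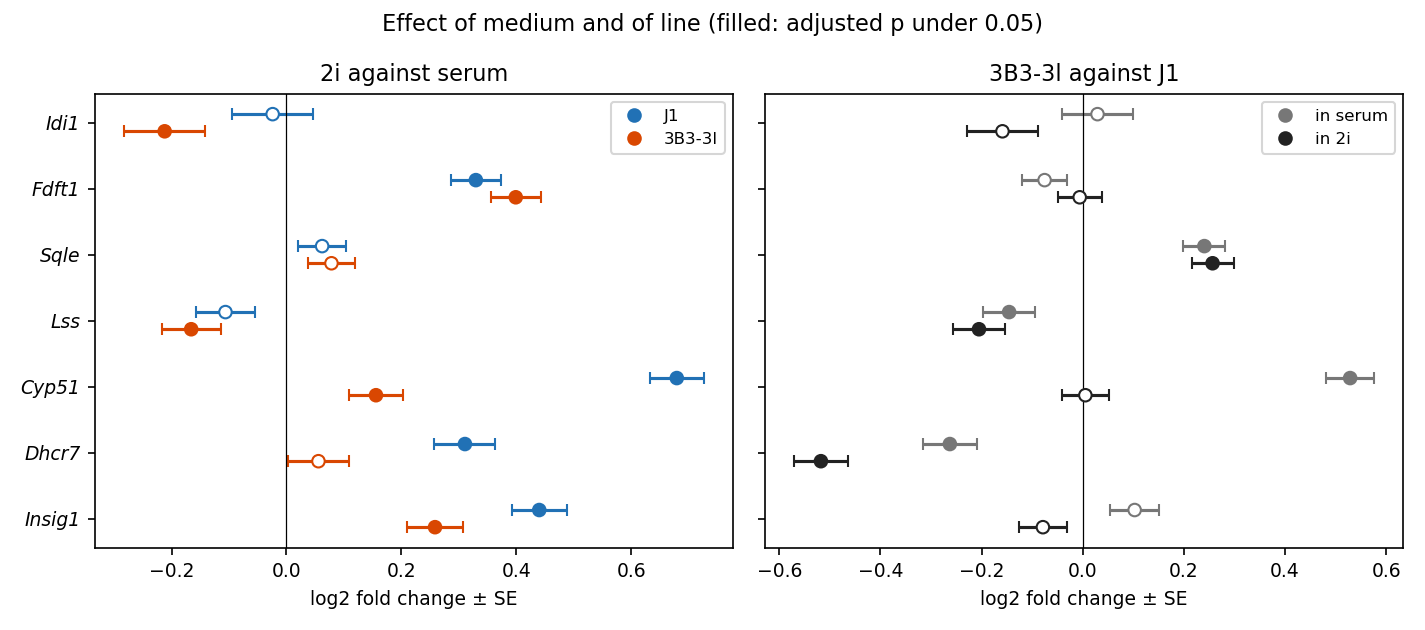
Log2 fold changes of the 7 genes with their standard errors, for 2i against serum in each line (left) and for 3B3-3l against J1 in each medium (right), filled where the edgeR adjusted p is under 0.05. In 2i against serum, Cyp51 lies at 0.68 in J1 and 0.16 in 3B3-3l, and in 3B3-3l against J1, Cyp51 lies at 0.53 in serum and 0.01 in 2i.

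Whether the difference between media differed between the lines was tested directly, as the 2i effect in 3B3-3l minus that in J1. In J1 this effect also carries the change from feeders, which cannot be told apart from medium. The difference between the effects was called for 3 members (Cyp51, Dhcr7 and Insig1). The effect was smaller in 3B3-3l in each, and none was called in the other direction. Over all genes, 18.3% were called lower in this sense and 16.3% were called higher. The test uses the same libraries as the comparisons within each line and each medium. In the plot of the effects in both lines the called genes lie below the diagonal. Idi1 lies about as far below it as Insig1, with differences of -0.19 and -0.18, but was not called (edgeR adjusted p = 0.164). Fdft1, Sqle and Lss lie close to it.

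**Figure D3:**
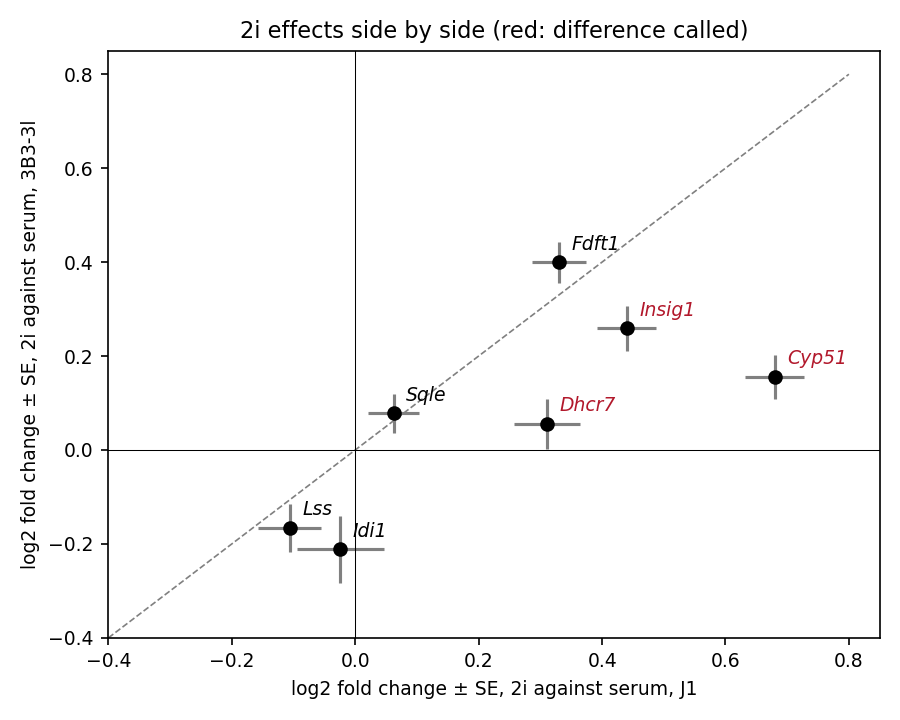
Log2 fold change of 2i against serum in J1 (horizontal) and 3B3-3l (vertical) for the 7 genes, with standard errors, and a dashed line where the effects are equal. Cyp51 (0.68 and 0.16), Dhcr7 (0.31 and 0.06) and Insig1 (0.44 and 0.26), in red, passed the test of a difference between the lines (Insig1 at an edgeR adjusted p of 0.0495), whereas Fdft1 (0.33 and 0.40) did not.

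Levels can be compared between genes only per transcript length. Per kilobase of effective length, in CPM, Dhcr7 stood at 62.7 ± 1.91, Fdft1 at 67.3 ± 3.22 and Insig1 at 59.6 ± 1.57 in J1 2i (SD, n = 3), and these were the highest of the measured members there. Sqle followed at 47.5 ± 0.477, then Lss at 38.8 ± 2.39 and Cyp51 at 29.4 ± 1.10. In J1 serum Cyp51 was again the lowest, at 18.3 ± 0.625, and Fdft1 the highest, at 53.4 ± 0.120. In 3B3-3l 2i, Lss (30.5 ± 1.23) and Cyp51 (29.6 ± 1.04) lay within their spread of each other. Idi1 has no value on this scale, because its transcript estimates did not add up to the gene count. The values on this scale add up all transcripts of a gene, short non-coding ones included. In J1 2i, the coding transcripts Lss-001 and Dhcr7-001 held 49.8% and 70.8% of their genes' TPM. The order of genes given here may thus differ for coding transcripts alone.

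Gene counts add up transcripts, so the share of each transcript in its gene was compared between media and between lines. Dhcr7 and Lss were the members with at least 2 transcripts above 5% of TPM (a length-scaled share of all transcripts). The main coding transcript Dhcr7-001 held 73.8% ± 1.45 of Dhcr7 TPM in J1 serum, 70.8% ± 1.91 in J1 2i, 70.9% ± 3.80 in 3B3-3l serum and 74.0% ± 4.65 in 3B3-3l 2i (SD, n = 3). For Lss, the coding transcript Lss-001 held 54.6% ± 8.17, 49.8% ± 4.25, 52.1% ± 4.32 and 54.5% ± 4.32 in the same order. Of 14 comparisons none passed an adjusted p of 0.05 by the exact two-sided permutation test, and 1 passed unadjusted. That was the retained-intron transcript Lss-004, with a share 1.22 percentage points higher in 3B3-3l (exact permutation p = 0.03, adjusted p = 0.42).

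The other enzymes of the pathway place the members among their neighbours. Counts of calls in this and the following lists stand beside shares over all genes of 33.2% higher and 32.9% lower in J1 and 32.7% each way in 3B3-3l. Because the lists were chosen with earlier results of these data known, their counts are a description and not an independent test. Of 14 further sterol enzymes, 11 rose in 2i, 1 fell and 2 were not called in J1, with a median log2 fold change of 0.28. In 3B3-3l 10 rose, 1 fell and 3 were not called, with a median of 0.32. With the members, 14 of 20 measured enzymes rose in J1 and 12 of 20 rose in 3B3-3l. Among the 10 enzymes after lanosterol, 9 rose and 1 fell in J1, with a median of 0.45, and 7 rose and none fell in 3B3-3l, with a median of 0.22. Among the 3 enzymes from farnesyl diphosphate to lanosterol, all of them members, only Fdft1 rose in each line.

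The largest increases among the sterol enzymes were those of Ebp, a sterol isomerase, and Tm7sf2, a sterol reductase. Ebp rose in J1 (15.7 to 49.3 CPM) and in 3B3-3l (14.4 to 47.6 CPM), which is 1.65 ± 0.08 and 1.73 ± 0.08 on the log2 scale (edgeR adjusted p = 2.00e-11 and 1.06e-11). Tm7sf2 rose by 1.61 ± 0.07 and 1.36 ± 0.07 (edgeR adjusted p = 7.45e-12 and 4.91e-11).

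**Figure D4:**
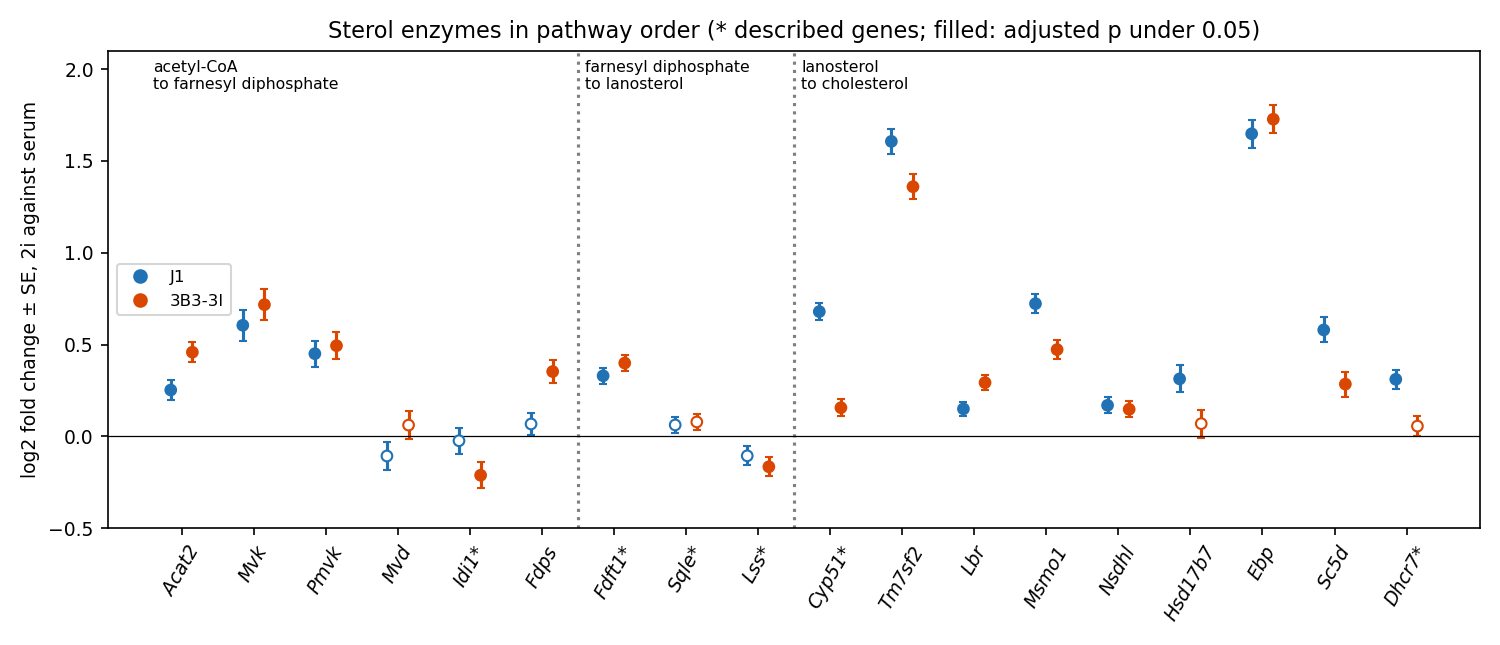
Log2 fold change of 2i against serum, with standard errors, for 18 sterol enzymes in the order of the pathway in J1 and 3B3-3l (asterisks mark the 6 enzymes described above, filled points have an edgeR adjusted p under 0.05). Tm7sf2 and Ebp lie between 1.36 and 1.73, and the 3 enzymes from farnesyl diphosphate to lanosterol lie between -0.17 and 0.40.

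Between lines, 2 of the 14 other sterol enzymes were called higher and 7 lower in 3B3-3l in serum, against 21.5% and 17.2% of all genes. In 2i, 1 was called higher and 8 lower, against 23% and 22.9% of all genes. The difference between the 2i effects was called positive for 3 and negative for 3, near the 16.3% and 18.3% of all genes. Farnesyl diphosphate also feeds branches that do not lead to sterols. Of 6 genes of these branches, 3 rose and 1 fell in J1 (median 0.18), and 2 rose and 1 fell in 3B3-3l (median -0.06), counts near the background for a list of this size. Pdss1, which makes the side chain of coenzyme Q, rose by 0.65 ± 0.06 and 0.98 ± 0.06, and Dhdds, of dolichol synthesis, rose by 0.34 ± 0.05 and 0.39 ± 0.05 on the log2 scale in J1 and 3B3-3l. Ggps1, which makes geranylgeranyl diphosphate, fell in both, at -0.22 ± 0.08 and -0.26 ± 0.08 (edgeR adjusted p = 0.03 and 0.012).

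Of 16 genes of cholesterol uptake and trafficking, 10 rose, 3 fell and 3 were not called in J1 (median 0.28), and 7 rose, 4 fell and 5 were not called in 3B3-3l (median 0.04). Mylip, a ubiquitin ligase of lipoprotein receptors, rose by 0.48 ± 0.09 in J1 and 0.73 ± 0.09 in 3B3-3l on the log2 scale. Npc2, which hands cholesterol out of lysosomes, rose by 1.39 ± 0.06 and 1.23 ± 0.06, and Lipa, the lysosomal lipase, fell in both, at -0.70 ± 0.09 and -1.58 ± 0.10. Npc1l1, an absorption transporter, also fell, from 0.980 to 0.334 CPM and from 1.04 to 0.203 CPM. Vldlr, a related lipoprotein receptor, rose by 1.39 ± 0.15 in J1 and was at 0.06 ± 0.14 in 3B3-3l, a difference of -1.33 ± 0.20 (edgeR adjusted p = 0.000124). The difference between the 2i effects was called negative for 7 of the 16 genes and positive for 1, against 18.3% and 16.3% of all genes.

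Of 14 genes of sterol sensing and enzyme turnover other than Insig1, 8 rose and 4 fell in J1 (median 0.19), and 6 rose and 3 fell in 3B3-3l (median 0.07). Against 33.2% higher and 32.9% lower over all genes in J1 and 32.7% each way in 3B3-3l, the falls in J1 and both counts in 3B3-3l lay near the background. Srebf1, which encodes SREBP-1 and mainly serves fatty acid synthesis, rose in J1 (133 to 248 CPM) and in 3B3-3l (92.2 to 186 CPM), by 0.90 ± 0.06 and 1.01 ± 0.06 on the log2 scale. Srebf2, which encodes the main factor for cholesterol genes, rose by 0.16 ± 0.05 in J1 (edgeR adjusted p = 0.00604), and its value in 3B3-3l was 0.10 ± 0.05 (edgeR adjusted p = 0.0783). Scap fell in J1 and rose in 3B3-3l, at -0.17 ± 0.06 and 0.19 ± 0.06 (edgeR adjusted p = 0.0127 and 0.00676), a difference of 0.36 ± 0.08 (edgeR adjusted p = 0.00222). Insig2, the second INSIG gene, rose by 0.28 ± 0.09 in J1 (edgeR adjusted p = 0.0126) and was at 0.05 ± 0.09 in 3B3-3l. Among ubiquitin ligases of the pathway, Rnf145 fell in both lines (-0.70 ± 0.05 and -0.76 ± 0.05), as did Marchf6 (-0.24 ± 0.08 and -0.47 ± 0.08), while Rnf139 rose by 0.69 ± 0.12 in J1 and was at -0.07 ± 0.12 in 3B3-3l. Erlin1, a partner of these ligases, rose by 0.45 ± 0.05 and 0.87 ± 0.05, and Pgrmc1, a membrane haem protein, fell in 3B3-3l (-0.80 ± 0.06) and was at -0.01 ± 0.06 in J1.

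Of 13 genes of cholesterol efflux, esterification and oxysterol formation, 12 were tested and Ch25h was too low to test. In J1 3 rose and 6 fell (median -0.24), and in 3B3-3l 5 rose and 4 fell (median -0.09). Over all genes 33.2% rose and 32.9% fell in J1 and 32.7% did each in 3B3-3l, so that the counts in 3B3-3l lay near the background. Soat1, which stores cholesterol as esters, fell in J1 (49.7 to 23.6 CPM) and in 3B3-3l (67.8 to 12.6 CPM), at -1.07 ± 0.07 and -2.42 ± 0.07 on the log2 scale. Nceh1, which hydrolyses such esters, rose by 0.76 ± 0.10 and 0.85 ± 0.10. Abca1, the efflux transporter, rose by 0.49 ± 0.08 and 1.06 ± 0.08, and Lpcat3, which remodels phospholipids, rose by 1.52 ± 0.05 and 1.04 ± 0.05. Cyp27a1 (-1.77 ± 0.16 and -2.74 ± 0.17) and Cyp46a1 (-2.48 ± 0.34 and -1.65 ± 0.32), which make oxysterols, fell from at most 3.41 CPM in serum.

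Fatty acid synthesis shares acetyl-CoA and SREBP control with sterol synthesis. Of its 13 genes, 10 rose and 3 fell in J1 (median 0.51), and 10 rose, 1 fell and 2 were not called in 3B3-3l (median 0.39). Scd1, a fatty acid desaturase, rose in J1 (134 to 474 CPM) and in 3B3-3l (124 to 421 CPM), by 1.82 ± 0.05 and 1.77 ± 0.05 on the log2 scale. Me1, which supplies NADPH, rose by 1.56 ± 0.06 and 1.19 ± 0.05. Mid1ip1, an activator of acetyl-CoA carboxylase, fell in both (-0.69 ± 0.09 and -0.96 ± 0.09), and Acaca, the carboxylase itself, fell in J1 (-0.23 ± 0.05) and was at -0.01 ± 0.05 in 3B3-3l. The plot of all lists sets these values side by side.

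**Figure D5:**
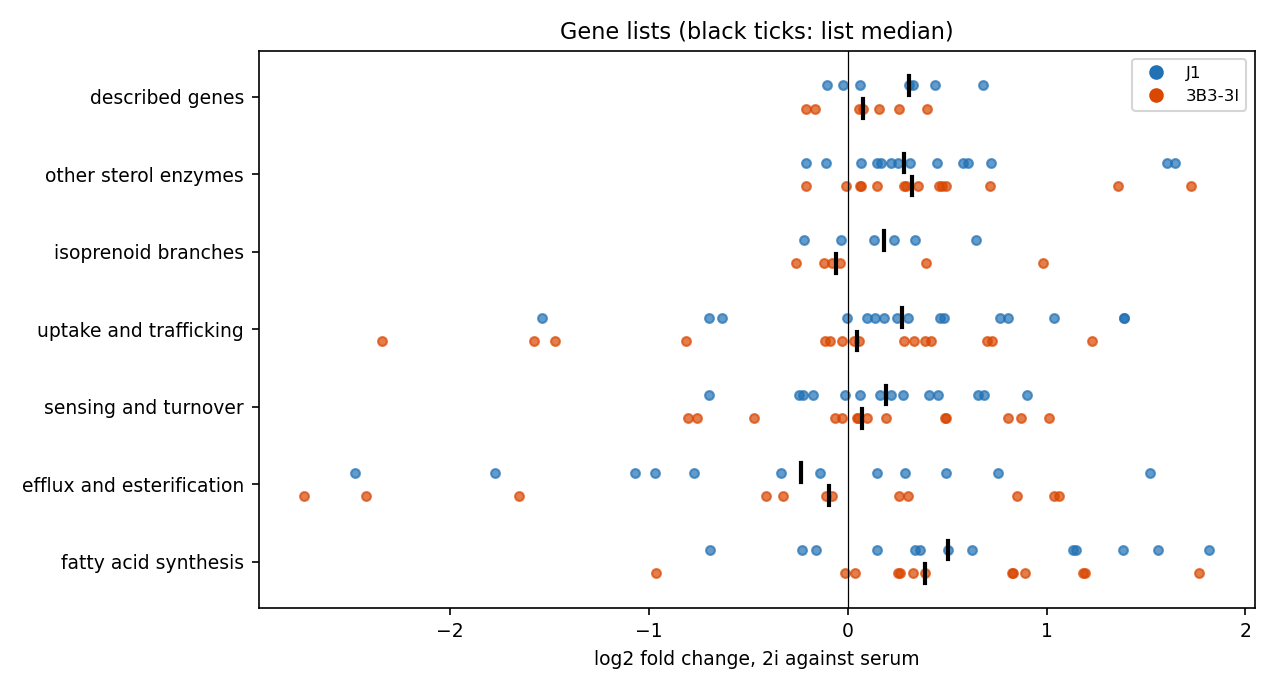
Log2 fold change of 2i against serum for each tested gene (points) of the described set and 6 related lists in J1 and 3B3-3l, with the median of each list as a black tick. The described genes lie between -0.21 and 0.68, a narrower span than that of uptake and trafficking (-2.34 to 1.39) or efflux and esterification (-2.74 to 1.52). Those lists are longer, and their lowest values are of Npc1l1 and Cyp27a1, at means of 1.04 and 3.41 CPM in 3B3-3l serum. The other sterol enzymes lie between -0.21 and 1.73.

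The genes whose levels over the 12 libraries were most like the mean of the members were sought among 9273 genes that averaged 10 CPM or more. They were Mad2l1 (Pearson r 0.98), Tagln2 (0.97), Sept10 (0.96), Capza2 (0.96) and Snx6 (0.96). Each was highest in J1 2i and lowest in J1 serum, as Mad2l1 shows at 147 and 89.7 CPM. Within J1 2i, replicate 3 was the highest library for 5 of the 7 members and replicate 1 was the lowest for 5, so that the libraries of that group were ordered alike for most members.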

How the data were processed

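The authors prepared stranded poly(A) libraries, ran Sailfish, set for stranded reads, on mm10 gene models and summarised its transcript estimates with tximport. The values they deposited are estimated counts per gene, not scaled by depth or length, and TPM and estimated counts per transcript for each library. Libraries were sequenced in pools, and which pool held which library is not given in the sources used here. Groups and replicate numbers came from the labels.

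Estimated counts were rounded, genes were kept by filterByExpr (17885 genes) and TMM-scaled, and all 12 libraries entered an edgeR (4.0.16, R 4.3.3) quasi-likelihood fit of the 4 group means. The threshold was an adjusted p of 0.05 (Benjamini-Hochberg, within each comparison). The ± of a log2 value is its standard error, and the biological coefficient of variation was 6.49%. On data simulated for J1 2i against J1 serum (17482 genes), 99% of genes changed by 0.5 and 100% of those changed by 1 on the log2 scale were recovered. False calls made up 3.4% of the calls there. The changed genes all averaged over 10 CPM and were far fewer than those called in the real data. Changes smaller than 0.5 were not simulated, so the recovery says nothing on the smaller effects of most members. Counting floors cover counting error only. Replicate libraries are called biological by the study.

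Symbols were available for 85.6% of genes (98.4% of reads). Near-identical copies were sought by aligning transcripts to the NCBIM37 genome. Transcript shares were compared by exact permutation within lines or media (400 arrangements, smallest p 0.005). The members and gene lists were chosen with earlier results of these data known. Genes named are the members, Srebf1, Srebf2, Scap, Insig2 and, per list and line, the called genes with the 2 highest and 2 lowest log2 fold changes at 1 CPM or more. Some genes that this rule picks are counted in their lists but not reported here by name. Alternatives were DESeq2 (1.42.0) size factors and Wald test, no filter, at least 10 counts in every library, the 6 libraries compared, length offsets, a replicate block and leaving out each library.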

Additional observations from a re-analysis of the deposited data

Results flagged for a closer look

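The interaction term of the edgeR fit passed the threshold for 3 of the 7 genes, of which Insig1 did so narrowly. Values are the log2 effect in 3B3-3l minus that in J1. The value for Cyp51 was -0.52 (edgeR adjusted p = 2.5e-05), with group means of 68.9 CPM in J1 serum, 110.4 in J1 2i, 99.4 in 3B3-3l serum and 110.8 in 3B3-3l 2i. For Dhcr7 it was -0.25 (edgeR adjusted p = 0.0158), with 95.2, 118.1, 79.3 and 82.5 CPM in the same order. For Insig1 it was -0.18 (edgeR adjusted p = 0.0495), with 110.8, 150.3, 118.9 and 142.3 CPM. Over the leave-outs of single libraries the Cyp51 value ranged from -0.58 to -0.49 and that of Dhcr7 from -0.31 to -0.20, and both stayed called. The Insig1 call was lost when any 1 of 9 of the 12 libraries was left out (edgeR adjusted p = 0.0508 to 0.149), with DESeq2 size factors (0.0504), no filter (0.137), a replicate block (0.0811) and length offsets (0.0558). Groups of 3 libraries were too small for a check of single libraries that stand apart.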

How the results depend on the processing

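Of the counts of called genes per list and comparison, 241 stayed within 1.5 times under the settings other than leaving out a library and 1 did not: with length offsets, 1 isoprenoid gene was called between the lines in serum, against 2. Leaving out single libraries moved 2 such counts by over 1.5 times, with ranges of 3 to 5 for efflux genes between the lines in serum (3 when J1 serum replicate 3 or 3B3-3l serum replicate 2 was left out) and 2 to 6 for other sterol enzymes in the difference of 2i effects (2 without J1 serum replicate 1 and 3 without J1 serum replicate 3, 3B3-3l serum replicate 2 or 3B3-3l 2i replicate 2 or 3). Values that changed sign were near 0 and not called. They were the Lss effect of 2i in J1 with length offsets (0.00259), Dhcr7 in 3B3-3l at 10 counts or more (-0.000497), the Sqle difference of effects at 10 counts or more (-0.018), and Cyp51 between lines in 2i with DESeq2 size factors (-0.00121), the DESeq2 Wald test (-0.00109), no filter (-0.00926), 10 counts or more (-0.021) and the 6 libraries compared (-0.00805). With libraries left out they ranged from -0.073 to 0.041 for Idi1 in J1, from -0.00031 to 0.11 for Dhcr7 in 3B3-3l, from -0.021 to 0.087 for Idi1 between lines in serum, from -0.043 to 0.036 for Fdft1 and -0.023 to 0.036 for Cyp51 between lines in 2i, and from -0.037 to 0.034 for the Sqle difference of effects. The cause was not tested.

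The Insig1 difference of effects was not called with DESeq2 size factors (adjusted p = 0.0504 by edgeR), no filter (0.137) or length offsets (0.0558). At 10 counts or more, the Cyp51 rise in 3B3-3l was not called (edgeR adjusted p = 0.0632), whereas the Lss effect in J1 (0.0309) and the Idi1 line difference in 2i (0.0396, and 0.0358 with no filter) were. Same-numbered libraries of different groups did not deviate together (correlations of -0.43 to 0.19 over 12 pairs), so that the numbers do not pair them. With a replicate block, 4 members were called in J1, 5 in 3B3-3l, 3 between lines in serum, 3 between lines in 2i and 2 in the difference of effects, the lost calls being Lss in serum (edgeR adjusted p = 0.063) and Insig1 (0.0811). No transcript share passed under any setting tried, though in the main setting a lone shifted transcript could not have passed after adjustment. In the settings that left out a replicate number, groups of 2 libraries gave too few arrangements for any share to pass. Those settings therefore do not bear on the result. Depth did not limit the members, whose lowest library value was 66.4 CPM.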
